A study of Mus musculus with 209 samples.

Results

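This report describes 252 abundant maternal transcripts of the mouse egg whose level was low by the 2-cell stage. They were chosen from 24450 genes by pooled CPM, the summed counts of a gene in a group of libraries as a proportion of their summed gene counts, given per 1000000 counts. A transcript was taken if it had at least 50 CPM in wild-type (WT) oocyte replicates 4 to 13 and at most 25% of that level in WT 2-cell replicates 1, 3, 5 and 7. Of 2819 genes at or above 50 CPM, 279 met both thresholds, and 27 of those belonging to gene families set aside by their name prefix were left out. The levels in these 14 libraries are therefore a description and support nothing. The comparison of mutant with WT 2-cell samples used the WT 2-cell replicates 2, 4, 6 and 8, which had no part in the choice.

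Single-cell RNA libraries came from 9 knockout (KO) and 8 WT 2-cell samples and from 19 KO and 14 WT oocytes at metaphase II (MII), the stage at which the egg is ovulated. Labels call the mutant genotype N14 maternal KO. N14 is taken here to stand for Nlrp14, which encodes an NLRP protein made in oocytes, and the loss to be the mother's. How the allele was made is not stated in the labels of these libraries. Per the labels, C57BL/6 females aged 6 to 8 weeks were superovulated with PMSG and hCG, oocytes were taken 14 to 15 h after hCG and 2-cell embryos 42 to 43 h after it. Fathers of embryos were C57BL/6 or PWK, and the labels do not say which strain fathered a given 2-cell sample. A pair of cultured epiblasts (IVC) and a pair of embryonic day 6.5 epiblasts labelled E6.5 ND, all WT and C57BL/6 on both sides, served as a later reading of the same genes. No animal is named for any oocyte or 2-cell library, so each genotype and stage was treated as 1 sample, no test was run between them, and every interval covers counting error alone.

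A growing oocyte stores mRNA that supports meiosis, fertilisation and the first cleavage, and it stops transcribing before it is ovulated. Maternal mRNA is then removed in steps, some during meiotic maturation and more once the embryo begins to transcribe its own genome, which in the mouse happens mainly at the 2-cell stage. A transcript can therefore be low in the 2-cell embryo because the maternal store was removed, and can be partly refilled by the embryo's own copies.

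Total gene counts ran from 2704050 to 15007301 in KO 2-cell libraries and from 3788348 to 10303580 in WT 2-cell libraries, and from 4585916 to 10637866 in KO oocytes and from 3933604 to 13052327 in WT oocytes. Nlrp14 had 29.4 to 86.4 CPM in KO 2-cell libraries and 106 to 477 CPM in WT 2-cell libraries, so the groups did not overlap. WT 2-cell replicate 8 stood apart from the other WT 2-cell libraries. It held 5.78% of its counts in the 252 transcripts where the other 7 held 1.86 to 2.94%, its Nlrp14 level was the lowest of the WT libraries, and its spike-in RNA made up 0.0583% of counts where the other 7 had 0.101 to 0.135%. Because it held 10303580 of the 24471922 counts of the even-numbered WT pool, the main 2-cell results are given with and without it. Its Nlrp14 level of 106 CPM was above the highest KO value. Counts from Rn45s (ribosomal RNA precursor) made up 0.621% of replicate 8, within the 0.513 to 0.935% of KO 2-cell libraries. The other 7 WT 2-cell libraries had 1.11 to 1.71%. The paternal share of replicate 8, given below, also lay within the KO range. Whether its label holds was not tested, and every pooled WT value that includes it carries that doubt. Oocyte libraries fell into sets by their spike-in share and ribosomal RNA, which the labels do not describe. In what follows, oocytes with little rRNA are the 10 KO and 3 WT libraries with at most 0.01% spike-in counts and under 1% of counts from Rn45s, the ribosomal RNA precursor, and spike-in oocytes are the 7 KO and 10 WT libraries above 0.01%. All 14 oocyte markers were detected in KO and WT oocytes. The cumulus and granulosa cell list summed to 59.3 to 294 CPM in KO oocytes and 61.8 to 152 CPM in WT oocytes, and its most abundant gene, Cyp19a1 (aromatase), is among the 252 transcripts. In 2-cell libraries the same list summed to 54.9 to 136 CPM in KO and 71.2 to 211 CPM in even-numbered WT, with 3 of its 20 genes at 0 in KO and 4 in WT, and its part in the results was not tested.

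The 252 transcripts took up more of the KO 2-cell libraries than of the WT ones. Their share of counts was lowest at 3.11%, 7.03% at the median and 10.6% at the highest in the 9 KO 2-cell libraries, against 1.94, 2.35, 2.02 and 5.78% in WT replicates 2, 4, 6 and 8. Every KO library lay above WT replicates 2, 4 and 6, and 6 of the 9 also lay above replicate 8. In oocytes the share was 13.1 to 16.03% in KO and 13.4 to 15.1% in WT. The groups overlapped there.

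**Figure D1:**
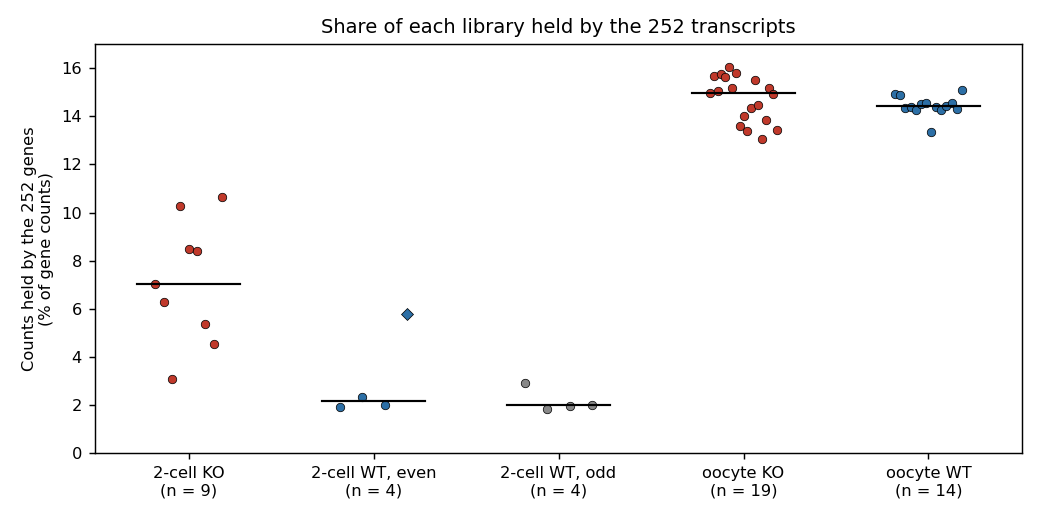
Share of gene counts held by the 252 transcripts (vertical axis, % of each library) in each library, with 1 point per library and a line at the group median; the diamond is WT 2-cell replicate 8. KO 2-cell libraries spread from 3.11 to 10.6%, while 3 of the 4 even-numbered WT 2-cell libraries lie at 1.94 to 2.35%, and both genotypes of oocyte lie between 13.1 and 16.03%.

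The amount of spike-in RNA gives a second scale for the same libraries. For each spike-in count, the KO 2-cell libraries held 32.4 to 212 counts of the 252 transcripts with a median of 114, against 17.1 to 99.0 with a median of 20.4 in the even-numbered WT libraries and 17.1 to 23.3 without replicate 8. All genes together gave 1044 to 2090 counts per spike-in count in KO 2-cell libraries and 844 to 1714 in those WT libraries, with medians of 1639 in KO and 944 in WT. These ranges overlapped. The part of this difference in the results on CPM was not tested.

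At the 2-cell stage 77 of the 252 transcripts were at least 2-fold higher in KO than in WT, and 4 were at least 2-fold lower. Over all 2819 genes at 50 CPM or more in oocytes, 5.18% were higher and 6.39% lower by the same measure. The median log2 ratio of KO over WT was 0.70 over the 252 and 0.03 over the 2819, and 215 of the 252 ratios lay above 0. Among the 2567 genes that passed the oocyte threshold but were not members, 69 were higher, 176 were lower and the median was -0.01. Over the 8313 genes at 10 CPM or more in either 2-cell pool, 3.71% were higher and 28.5% lower. Without WT replicate 8, 144 of the 252 were higher against 18.1% of the 2819, 7 were lower against 12.3%, and the median ratio of the 252 was 1.19. Few transcripts separated the single libraries fully. In 5 of the 252 (1.98%) all 9 KO libraries lay above all 4 WT libraries, a share near the 1.28% of the 2819 genes. In 1 they lay below, against 0.709%. Without WT replicate 8 these counts were 69, against 14.3% of genes, and 3, against 11.7%. The count of 5 was also sensitive to other libraries, with 11 without KO replicate 3, 9 without KO replicate 8 and 9 without WT replicate 6. For these settings the share of the 2819 genes was not computed. The 4 transcripts 2-fold lower in KO became 2 without WT replicate 2 and 1 without WT replicate 6.

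**Figure D2:**
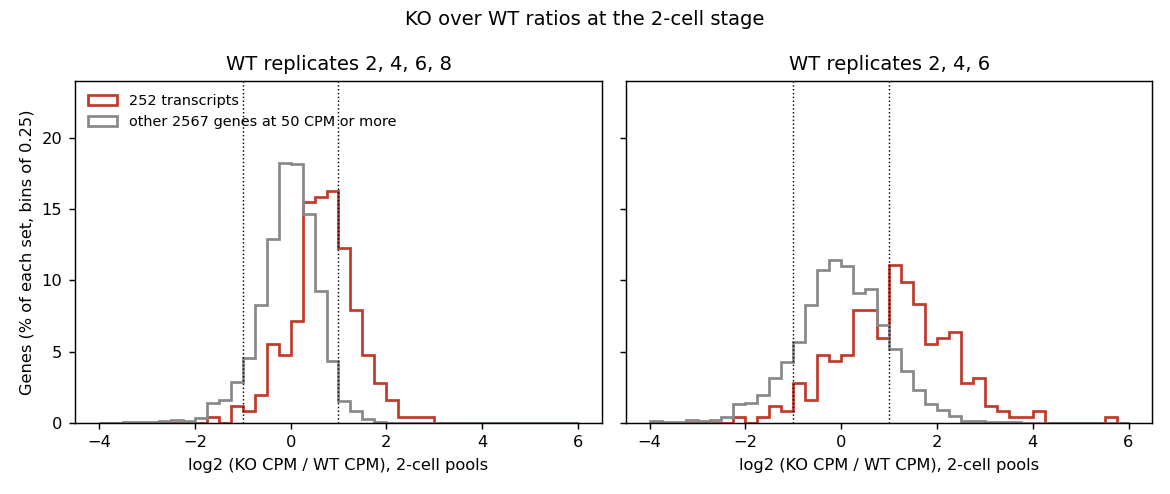
Distribution of the log2 ratio of pooled CPM, KO over WT at the 2-cell stage (horizontal axis), for the 252 transcripts and the other 2567 genes at 50 CPM or more in oocytes (vertical axis, % of each set per bin of 0.25), with WT replicates 2, 4, 6 and 8 on the left and without replicate 8 on the right. Dotted lines mark 2-fold; the 252 have a median of 0.70 on the left and 1.19 on the right, where the other genes have -0.01 and 0.02.

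The ratios differed between transcripts of different function. Members were sorted by their textbook role once their values were known, so the groups below are descriptions with no test. Groups for ubiquitin and related modifiers (8 transcripts, median log2 ratio 1.05), metabolism and mitochondria (22, 1.01), oocyte and germ cell genes (19, 0.94) and the nuclear pore and mRNA export (7, 0.93) lay above the median of the 252. DNA repair and replication (16, 0.64), mitosis and chromosome structure (11, 0.59), membrane traffic (15, 0.57), pre-mRNA splicing and processing (14, 0.46) and chromatin and transcription (16, 0.46) lay below it. The 15 transcripts for ribosome and tRNA biogenesis had a median of -0.28, none was 2-fold higher and 2 were 2-fold lower, and 3 were higher without WT replicate 8. TMM, DESeq2 and spike-in scaling raise every ratio by 0.33, 0.26 and 0.61 on the log2 scale, so this median lies above 0 with TMM and with spike-in scaling. This order of the groups rests on libraries of which WT replicate 8 is the deepest. Without it the medians were 2.24 for the ubiquitin group, 1.90 for germ cell genes, 1.596 for the nuclear pore, 1.54 for metabolism, 1.26 for membrane traffic, 1.02 for repair, 0.81 for splicing, 0.63 for mitosis, 0.52 for chromatin and -0.28 for ribosome and tRNA biogenesis. Membrane traffic then lay above the 1.19 of all 252. The other 109 members fell into none of these groups and had a median of 0.72, or 1.21 without replicate 8.

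Broader role lists over the 2819 genes held at most 9 members each, and 196 of the 252 were in none of them. The list for ubiquitin conjugation and removal, which is not the group above, held 7 members, of which 3 were 2-fold higher with a median of 0.65, and 4 of its 99 genes were higher in all. Without WT replicate 8, 5 of the 7 were higher. Membrane traffic had 3 of 9 members higher (median 0.57), DNA repair and replication 1 of 8 (0.52), meiosis and cell cycle 2 of 5 (0.94), the cytoskeleton 1 of 5 (0.59), maternal mRNA decay and translation control 1 of 4 (0.63), signalling 2 of 4 (0.99) and pre-mRNA processing 1 of 4 (0.48). Over all genes of these lists, members included, 7 of 77 (median 0.29), 1 of 43 (0.16), 3 of 57 (0.07) and 1 of 56 (0.05) were higher. The last lists had 1 of 37 (-0.06), 5 of 91 (0.02) and 4 of 65 (-0.10). The maternal effect list had 2 of 3 members higher (1.56), secreted oocyte factors 1 of 3 (0.99), mitochondrial proteins 1 of 3 (0.94), oocyte transcription factors and chromatin 1 of 2 (0.93), solute carriers and channels 0 of 1 (-0.18), and no ribosomal protein was a member. Of all their genes, in the same order, 4 of 17 (median 0.60), 3 of 12 (0.71), 2 of 54 (-0.08), 4 of 44 (0.06) and 1 of 36 (0.01) were higher. No member of any list was 2-fold lower. Of all genes of a list, 0 of 17 were lower for maternal effect and 0 of 12 for secreted oocyte factors. The ubiquitin list had 2 of 99 lower, membrane traffic 3 of 77, oocyte transcription factors and chromatin 5 of 44 and pre-mRNA processing 7 of 65. Some list names do not describe the members counted. The 3 under secreted oocyte factors were Oas1c, Oas1d and Oas1e, which are oligoadenylate synthetase-like genes. Vps72, counted under membrane traffic, belongs to complexes that load the histone variant H2A.Z.

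Among the 19 oocyte and germ cell genes, 7 were at least 2-fold higher in KO and none was lower. H1foo, the linker histone of the oocyte, had the highest ratio of all 252. It had 874 CPM in the lowest, 2679 at the median and 12127 in the highest KO library, against 80.4, 89.5, 151 and 1786 CPM in WT replicates 2, 4, 6 and 8. All KO libraries lay above WT replicates 2, 4 and 6, and 6 of the 9 lay above replicate 8. The log2 ratio of the pools was 2.75 (95% counting interval 2.73 to 2.78), and 5.73 without replicate 8. Zar1, an RNA-binding protein that regulates stored maternal mRNA, had 52.1, 113 and 881 CPM as lowest, median and highest KO value, against 19.2, 25.3, 28.5 and 140 CPM in the 4 WT libraries. Its ratio was 2.23, and 3.82 without replicate 8, and 4 KO libraries lay above all WT ones. Both genes were highest in KO replicate 4, the deepest KO library, and without that library their ratios were 2.05 and 1.24.

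Other germ cell members varied. Bcl2l10, a BCL2 family member abundant in oocytes, had a pooled level of 5929 CPM in KO and 2350 CPM in WT 2-cell samples, a log2 ratio of 1.33, with 8 of 9 KO libraries above every WT library. Nobox, a homeobox transcription factor needed for follicle growth, had a ratio of 1.28, and Oog4, an oocyte gene of a leucine-rich repeat family, 1.56. All 4 oligoadenylate synthetase-like genes that passed the oocyte threshold were members. Oas1h (1.46) and Oas1e (1.21) were 2-fold higher in KO, while Oas1d had 0.99 and Oas1c 0.69. Rfpl4, the most abundant of the 252 in WT oocytes at 7471 CPM, had 3909 CPM in KO and 2040 CPM in WT 2-cell samples and a ratio of 0.94, just under the threshold. Its ratio without WT replicate 8 was 2.41, that of Bcl2l10 2.29, of Nobox 2.93 and of Oog4 2.24. All 4 Oas1 genes were past 2-fold without that library, with 1.97 for Oas1h, 2.50 for Oas1e, 2.15 for Oas1d and 1.895 for Oas1c. Dazl, an RNA-binding protein of germ cells, had 0.44, and 0.95 without it. The lowest values of the group were those of Msh4, a meiotic recombination protein, with -0.44, and Rnf17, a tudor-domain protein of the germ line, with -0.56, and both lie above 0 with spike-in scaling. Leaving out replicate 8 gave -0.56 for Msh4 and -0.99 for Rnf17.

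The metabolic group had 11 of 22 members 2-fold higher in KO and none lower. Ldhb, a subunit of lactate dehydrogenase, had 867, 1780 and 3661 CPM as lowest, median and highest KO value, against 281, 552, 439 and 1327 CPM in WT replicates 2, 4, 6 and 8. Here 7 of 9 KO libraries were above every WT library, and the ratio was 1.45. Sdha, the catalytic subunit of succinate dehydrogenase, had 60.1, 94.7 and 188 CPM in KO at the same points, against 28.2, 20.0, 6.07 and 50.8 CPM in WT. It was 1 of the 5 transcripts without overlap, with a ratio of 1.79. Stoml2, a mitochondrial inner membrane protein, had a ratio of 1.53, Mgst3, a microsomal glutathione transferase, 1.38, and Bpgm, bisphosphoglycerate mutase, 1.10. Tfb1m, a mitochondrial rRNA methyltransferase, was the single member of the group below 0, at -0.13, and lay at 0.17 without WT replicate 8. Without that library the ratios were 2.34 for Ldhb, 2.57 for Sdha, 2.82 for Stoml2, 3.26 for Mgst3 and 1.03 for Bpgm.

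In the ubiquitin group 6 of 8 members were 2-fold higher. Rnf219, a ubiquitin ligase also named Obi1, had 20.4, 33.9 and 87.9 CPM as lowest, median and highest KO value, against 10.6, 6.94, 13.46 and 13.3 CPM in the WT libraries, with no overlap and a ratio of 1.98, or 2.18 without replicate 8. This was a difference that WT replicate 8 did not carry, since its value lay among those of the other WT libraries. Maea, part of the CTLH ubiquitin ligase, had 1.37, and Nae1, a subunit of the NEDD8-activating enzyme, 1.08, and without WT replicate 8 these were 2.54 and 1.70. Among the nuclear pore and export members, Rae1, an mRNA export factor, had 1.46 and Nup85, a scaffold nucleoporin, 1.13. The other 5 lay between 0.52 (Ddx19a, an RNA helicase of export) and 0.997 (Pcid2, a subunit of the TREX-2 complex). Rae1 had 2.34 and Nup85 1.74 without WT replicate 8.

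Chromatin and cell cycle members were divided. Rbbp7, a histone-binding protein of several chromatin complexes, had 950, 3069 and 6613 CPM as lowest, median and highest KO value, against 559, 554, 513 and 2248 CPM in WT. All 9 KO libraries lay above WT replicates 2, 4 and 6, and 6 lay above replicate 8. The ratio was 1.599, and 2.81 without replicate 8. Vps72, a subunit of complexes that load the histone variant H2A.Z, had 1.89, and 2.82 without that library. Supt16, a histone chaperone of the FACT complex, had -0.005 and Taf3, a TFIID subunit, 0.002, and these were -0.35 and -0.23 without it. Slbp, which binds the stem-loop of histone mRNA, stood outside the groups with 5528 CPM in KO and 2050 CPM in WT 2-cell samples and a ratio of 1.43, or 2.66 without replicate 8. Ccnb1 and Ccnb2, the B-type cyclins that drive entry into mitosis, had 1.13 and 1.01, and without replicate 8 Ccnb1 had 1.43 and Ccnb2 1.85. Ccnb1 had 1054, 2059 and 3935 CPM as lowest, median and highest KO value, against 875, 860, 857 and 1334 CPM in WT. Members of the condensin complex did not follow the cyclins, with -0.17 for Ncapg, which lies above 0 under each other scaling, and -1.06 for Smc4, which stays below 0 under each. Without replicate 8 they had -0.57 and -1.47.

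The 15 transcripts for ribosome and tRNA biogenesis had the lowest median of the groups, with single ratios from -1.58 to 0.87. Pop1, a protein of RNase P and RNase MRP, was lowest of the 252 with 0.363, 4.36 and 8.76 CPM as lowest, median and highest KO value, against 8.09, 23.8, 22.2 and 4.85 CPM in WT replicates 2, 4, 6 and 8. WT replicates 4 and 6 were above every KO library. The ratio was -1.58 (95% counting interval -1.82 to -1.34), and -2.12 without replicate 8. Brf2, a factor of RNA polymerase III, had a ratio of -1.12, Pak1ip1, a factor of large ribosomal subunit assembly, -0.76, and Ssb, the La protein that binds newly made RNA polymerase III transcripts, -0.53. Without replicate 8 these were -1.51, -1.05 and -0.95. Ssb had 93.7, 179 and 502 CPM as lowest, median and highest KO value, against 425, 323, 432 and 152 CPM in WT. In this case WT replicate 8 was the lowest WT library, inside the KO range, and with spike-in scaling the ratio of Ssb lies above 0.

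**Figure D3:**
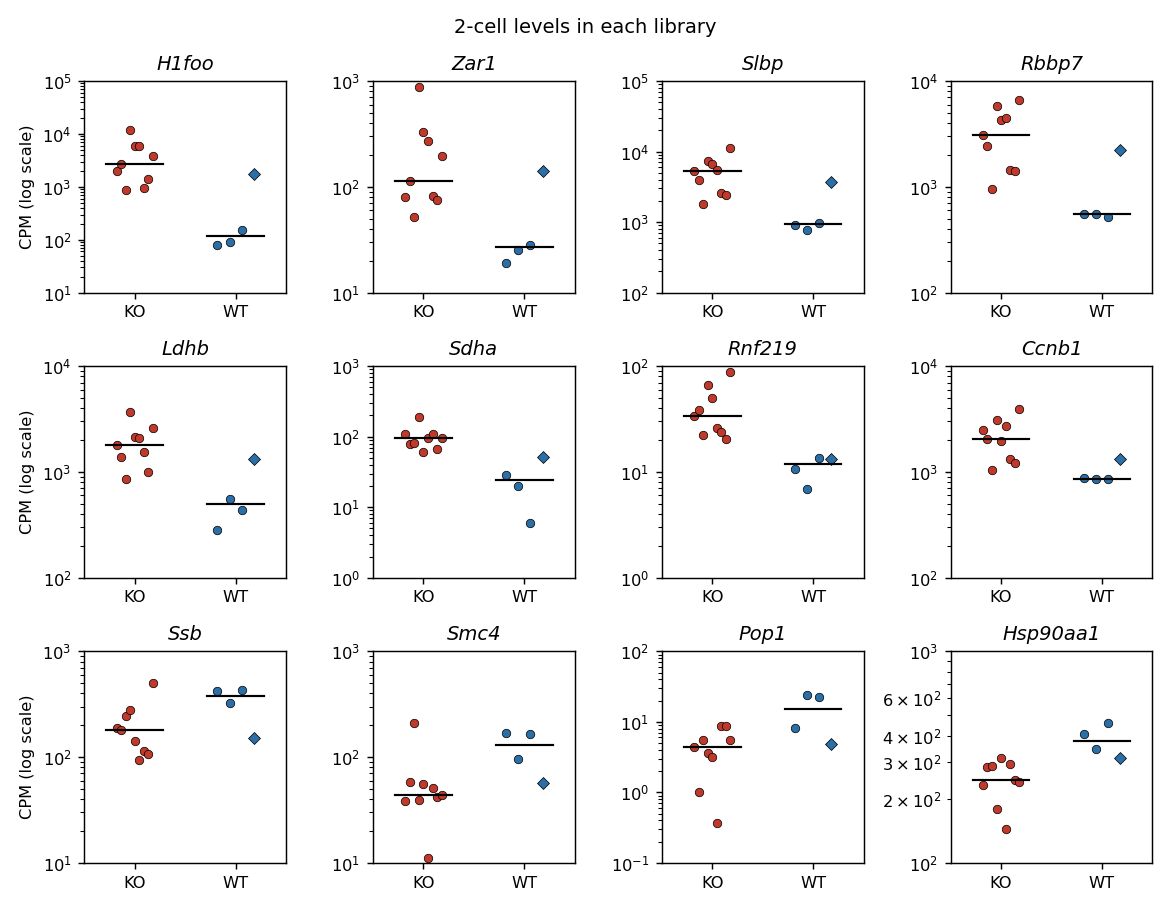
CPM at the 2-cell stage (vertical axes, log scale) of 12 of the transcripts in each KO and each even-numbered WT library, with a line at the group median and a diamond for WT replicate 8. H1foo, Zar1, Slbp, Rbbp7, Ldhb, Sdha, Rnf219 and Ccnb1 are higher in KO; Ssb, Smc4, Pop1 and Hsp90aa1 have lower KO medians, and replicate 8 lies on the KO side of the other WT libraries in 11 of the 12, Rnf219 being the exception.

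Beyond these, the second highest ratio of the 252 was that of E330021D16Rik, a clone without a gene name that was picked out after its value was seen. It had 382, 2888 and 5929 CPM as lowest, median and highest KO value, against 104, 279, 157 and 945 CPM in WT replicates 2, 4, 6 and 8, and 8 of 9 KO libraries lay above every WT library. The ratio was 2.64, and 4.04 without replicate 8. The other named transcripts of this range were of lower level. Pinx1, a nucleolar protein that inhibits telomerase, had 34.0 CPM in KO and 7.03 CPM in WT 2-cell pools and a ratio of 2.28. Mitd1, which acts with the ESCRT-III machinery at the midbody, had 43.5 CPM in KO, 9.52 CPM in WT and 2.19, and its 4 WT values ran from 0.00 to 18.7 CPM. Ccdc3, a secreted protein, had 2.01, Rsrc1, a splicing protein, 1.86, Crabp2, a carrier of retinoic acid, 1.84, and Vta1, a cofactor of the ESCRT ATPase VPS4, 1.81. With replicate 8 left out, Pinx1 had 2.83, Vta1 2.77 and Crabp2 2.21, while Mitd1, Rsrc1 and Ccdc3 had lower ratios than with it, 2.09, 1.74 and 1.62. The 3 further transcripts without overlap, named because of their values, were Zkscan6, a zinc finger protein (ratio 1.73), Echdc3, a mitochondrial enoyl-CoA hydratase domain protein (1.65), and Ccdc14, a centriolar satellite protein (1.02), at 2.79, 2.32 and 1.79 without replicate 8. Hsp90aa1, the stress-inducible form of the HSP90 chaperone, was the transcript below in all KO libraries, with 145, 247 and 311 CPM as lowest, median and highest KO value, against 406, 345, 457 and 313 CPM in WT. Its groups were separated by little and its ratio of -0.60 did not reach 2-fold and lies just above 0 with spike-in scaling, and was -0.73 without replicate 8.

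How much of the oocyte level was left at the 2-cell stage also differed. In KO the median of the 252 was 34.5% of the level in KO spike-in oocytes, against 21.2% in the even-numbered WT samples relative to WT oocytes 4 to 13, and 16.3% without replicate 8. Over all 2819 genes the medians were 90.6% in KO and 86.2% in WT. At 25% or less of the oocyte level were 85 of the 252 in KO, against 6.46% of the 2819 genes, and 159 in WT, against 7.95%. The WT count was 221 without replicate 8, against 12.1% of genes, and 79 transcripts were at or under 25% in WT but not in KO, against 113 of the 2819 genes, or 142 and 238 without replicate 8. The WT oocytes in this ratio chose the members, so the ratio was repeated with the oocytes of little rRNA, none of which was used to choose them. Against these, 72 of the 252 were at 25% or less in KO and 120 in WT (7.48 and 8.83% of all 2819), and the medians were 46.5% in KO and 26.0% in WT, where all 2819 genes had 114% in KO and 108% in WT. Without replicate 8 the WT count was 160, against 342 of the 2819, and the WT median 18.2%. Of the 252, 203 kept a larger percentage in KO than in WT in the first reading and 217 in the second, against 1503 and 1523 of the 2819 genes, and without replicate 8 it was 211 and 215, against 1593 and 1560.

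**Figure D4:**
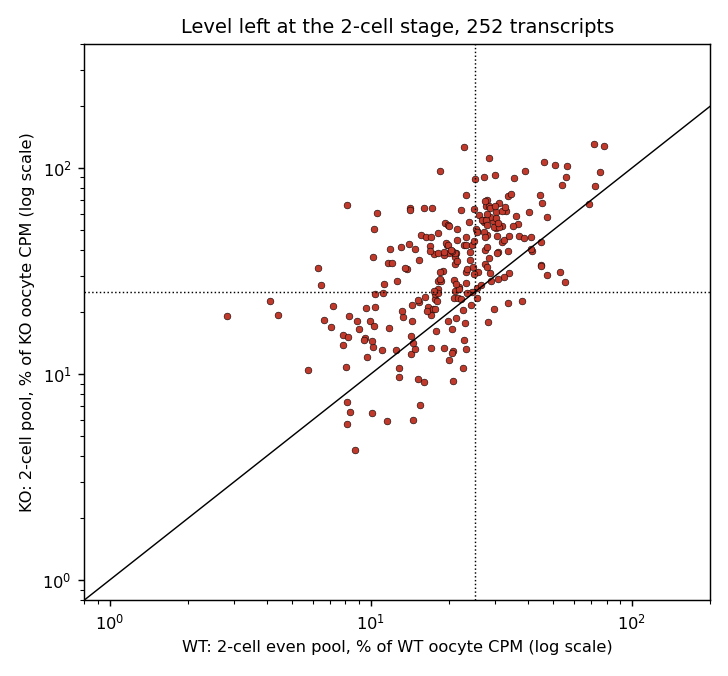
Level left at the 2-cell stage for each of the 252 transcripts, as % of the oocyte CPM, in KO (vertical axis, against KO spike-in oocytes) and in even-numbered WT samples (horizontal axis, against WT oocytes 4 to 13), both on log scales, with dotted lines at 25% and a solid line of equal values. Of the 252 points, 203 lie above the line of equal values; the medians are 34.5% in KO and 21.2% in WT.

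In 7 transcripts the KO 2-cell level was at or above the level of KO spike-in oocytes, against 1266 of the 2819 genes. They were Ccnb1 (112% in KO and 28.4% in WT), Mgst3 (107 and 46.1%), Maea (104 and 50.7%), Stoml2 (103 and 56.3%), Lcp1, an actin-bundling protein (127 and 78.1%), Gramd1c, a sterol-binding membrane protein (127 and 22.8%), and the clone E330034G19Rik (131 and 71.8%). Percentages depended on the oocyte set, and the list of 7 holds for spike-in oocytes alone. Against oocytes with little rRNA, Ccnb1 in KO was at 74.2% and Gramd1c at 84.7%. Other transcripts were above the level of those oocytes in KO, such as Rfpl4 at 191%, Ldhb at 175% and Zar1 at 141%. C87977 was above it in both genotypes, at 747% in KO and 227% in WT. H1foo in KO was at 92.1% of spike-in oocytes but at 35.9% of oocytes with little rRNA, where its KO level was 15279 CPM and not 5951 CPM. At the other end Ssb was left at 7.31% in KO and 8.09% in WT, and Smc4 at 5.90% in KO and 11.499% in WT.

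Few of the same transcripts differed 2-fold by genotype in oocytes. In oocytes with little rRNA 1 of the 252 was 2-fold higher in KO and 1 was 2-fold lower, against 0.177 and 0.426% of the 2819 genes, and the median log2 ratio was -0.06. All 77 transcripts that were 2-fold higher in KO at the 2-cell stage were within 2-fold in these oocytes, as were all 146 genes of the 2819 that were higher in KO and 2802 of the 2819 themselves. H1foo had a ratio of 0.15 there, Zar1 -0.38, Slbp 0.17, Rbbp7 0.05, Sdha 0.28 and Rnf219 0.00. The higher transcript was the gene model Gm527 (1.01). The count of higher transcripts was 0 without KO oocyte replicate 1, 3 or 9, was 2 without KO replicate 2 or 10 or WT replicate 1, and was 4 without WT replicate 2. The count of lower ones was 2 and 3 without those WT replicates. The lower one was Stard5, a lipid-binding START domain protein. It had 0.00, 3.87 and 17.3 CPM as lowest, median and highest value in the 10 KO oocytes, against 32.3, 20.3 and 10.8 CPM in the 3 WT oocytes, a log2 ratio of -1.92. At the 2-cell stage its ratio was -1.07, or -1.48 without WT replicate 8. In spike-in oocytes, whose WT libraries chose the members, 10 of the 252 were higher and 5 lower in KO, against 2.73 and 2.63% of genes. H1foo and Zar1 were past 2-fold in this set, with ratios of 1.13 and 2.05. Slbp had 0.46 there, Rbbp7 0.18, Sdha 0.81 and Rnf219 -0.32. The oocyte ratios of H1foo and Zar1 thus depended on the oocyte set.

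Allele counts of the KO and even-numbered WT libraries had no part in the choice of members. Among counts that could be assigned to a parent, the paternal share of the 252 was 0.703% in KO (95% Clopper-Pearson interval 0.693 to 0.714%) and 4.47% in the even-numbered WT libraries (4.41 to 4.53%), or 12.1% without replicate 8. Single libraries ran from 0.329 to 3.60% in KO, against 16.4, 6.73, 18.01 and 1.06% in WT replicates 2, 4, 6 and 8. KO libraries thus lay below WT replicates 2, 4 and 6 but not all below replicate 8. The other 2567 genes at 50 CPM or more had 1.47% in KO and 7.17% in WT, or 11.7% without replicate 8. A list of 14 genes that mark 2-cell transcription had 33.0% in KO and 39.9% in WT. By library it had 27.5 to 38.9% in KO and 33.6 to 45.3% in WT, so paternal counts were assigned in each. The summed level of the list ran from 330 to 4116 CPM in KO and 1129 to 2312 CPM in WT. The sum mixes genes of both directions. Obox6 had pooled levels of 16.8 CPM in KO and 270 CPM in WT, and Crxos 6.37 and 125 CPM. Zscan4c had 157 CPM in KO and 107 CPM in WT, and Zscan4d 152 and 98.6 CPM. KO replicates 4 and 9, with the lowest marker sums of 330 and 367 CPM, had the highest shares of the 252 transcripts, 10.3 and 10.6% of counts. KO replicate 3, with the highest sum of 4116 CPM, had the lowest share, 3.11%. Libraries with like sums also differed in share. KO replicates 7 and 5, with sums of 953 and 982 CPM, had 5.39 and 8.47%. WT replicates 4 and 8, with sums of 1129 and 1144 CPM, had 2.35 and 5.78%. The part of the embryo's own transcription in the difference between genotypes was not tested.

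**Figure D5:**
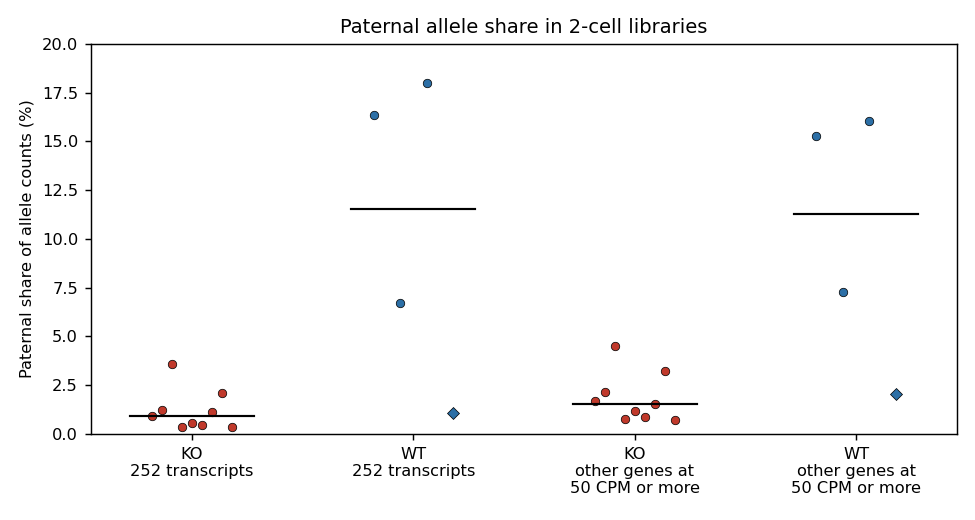
Paternal share of allele-assigned counts (vertical axis, %) in each KO and even-numbered WT 2-cell library, for the 252 transcripts and for the other 2567 genes at 50 CPM or more in oocytes, with a line at the median and a diamond for WT replicate 8. KO libraries reach at most 3.60% for the 252 and WT replicates 2, 4 and 6 at least 6.73%, while replicate 8 is at 1.06%.

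By gene, 2 of the 241 members with 50 or more allele counts had a paternal share of 20% or more in KO, and 51 of 232 did in WT. Of the other genes at the oocyte threshold, 89 of 2409 did in KO and 537 of 2390 in WT. The pair in KO was Stard5 with 65.9%, against 51.7% in WT, and Hsp90aa1 with 24.3%, against 42.4% in WT. H1foo was maternal in both genotypes, at 0.0215% paternal in KO and 0.0390% in WT, as were Rfpl4 at 0.112 and 0.103% and Bcl2l10 at 0.146 and 0.126%. Ccnb1 differed, with 2.98% in KO and 14.3% in WT, and Smc4 had 15.1% in KO and 24.4% in WT.

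The paternal share in WT replicates 1, 3, 5 and 7 was used to split the 252 further. The total counts of these 4 libraries chose the members and include the allele-assigned counts, so the classes are not independent of the choice and are a description that supports nothing. Of 75 transcripts under 5% paternal there, which included H1foo, Rfpl4, Bcl2l10, Ldhb and Tbc1d15, 32 were 2-fold higher in KO (42.7%), none was lower, and the median log2 ratio was 0.94. Among 75 with 5 to under 20%, such as Slbp and Dazl, 18 were higher, 2 were lower and the median was 0.72. In the 68 at 20% or more, such as Ccnb1, Ssb, Hsp90aa1 and Smc4, 18 were higher, 2 were lower and the median was 0.50. Another 34 had fewer than 50 allele counts. Without WT replicate 8 the classes had 56, 42 and 28 transcripts 2-fold higher and medians of 1.65, 1.146 and 0.59. The same 3 classes of the 2567 other genes had 3.33, 3.20 and 1.85% of genes 2-fold higher, with medians of 0.13, 0.05 and -0.32, and 6, 13 and 148 of their 870, 750 and 755 genes were 2-fold lower. Their counts of higher genes without WT replicate 8 were 178, 120 and 51 and their medians 0.29, 0.13 and -0.53. On maternal counts alone the medians of the 252 lay closer together, at 0.96, 0.86 and 0.83, and the 3 medians of the other genes were 0.15, 0.19 and 0.02. For Ccnb1 the maternal ratio was 1.37 and for Ssb -0.12. Rbbp7 could not be read this way, since 180 maternal counts were all that could be assigned to the mother in the 9 KO libraries.

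In epiblasts the same genes were read at a later stage. Of the 252, 40 were under 1 CPM in all 4 epiblasts, 97 were at 10 CPM or more in all 4, and 115 lay between. The first are called silent and the second expressed here. H1foo, Rfpl4, Bcl2l10, Oas1d, Obox2 and Oog4 were in the silent class, and Slbp, Rbbp7, Ldhb, Ccnb1 and Ssb in the expressed one. In KO over WT 2-cell samples the silent class had 17 of 40 transcripts 2-fold higher, none lower, and a median ratio of 0.94, and the expressed class had 27 of 97 higher, 2 lower, and a median of 0.52. Without WT replicate 8, 28 of the 40 were higher with a median of 1.71, and 41 of the 97 with a median of 0.67. Among the other genes at the oocyte threshold, the 228 in the silent class had 16 higher, 3 lower and a median of 0.17, and the 1319 in the expressed class had 24 higher, 136 lower and a median of -0.13. Leaving out that library gave 51 of the 228 higher with a median of 0.42, and 125 of the 1319 with a median of -0.21.

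Promoters of these classes differed in CpG dinucleotides. The 250 bases before the start of the gene were found in RefSeq (build GRCm38.p6) for 205 of the 252, the first listed start being used where there were several. Of 33 silent transcripts, 13 had 5 or more CpG (39.4%), with a median of 4, against 165 of the 172 others (95.9%), with a median of 17. Over the 2306 promoters found for genes at the oocyte threshold the share was 89.8%, and it was 55.5% over all 27025 promoters. The sequence TAATTG, the core element bound by NOBOX, was present on either strand in 17 of the 205 promoters (8.29%), against 5.51% for genes at the oocyte threshold and 7.34% of all genes. TATAAA was present in 4.39% of the 205, 5.98% of those at the oocyte threshold and 12.97% of all. Matches are descriptions and not binding sites. The promoters of a silent pair, Rfpl4 and Padi6 (a peptidylarginine deiminase of the oocyte's cytoplasmic lattices), and of an expressed pair, Rbbp7 and Ccnb1, are given below to show the contrast, 5′ to 3′ on the strand of the gene with CG in capitals. Rfpl4 lies on the minus strand at chr7:5116912-5117161 with 2 CpG, Padi6 on the minus strand at chr4:140742644-140742893 with 1, Rbbp7 on the plus strand at chrX:162760122-162760371 with 34, and Ccnb1 on the minus strand at chr13:100786487-100786736 with 28. The 4 were chosen after their values were seen.
Rfpl4: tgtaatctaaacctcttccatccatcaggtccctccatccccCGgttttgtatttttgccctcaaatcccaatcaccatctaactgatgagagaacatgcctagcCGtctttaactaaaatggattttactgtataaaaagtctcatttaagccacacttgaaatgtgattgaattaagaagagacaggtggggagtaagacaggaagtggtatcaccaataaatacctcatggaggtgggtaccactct
Padi6: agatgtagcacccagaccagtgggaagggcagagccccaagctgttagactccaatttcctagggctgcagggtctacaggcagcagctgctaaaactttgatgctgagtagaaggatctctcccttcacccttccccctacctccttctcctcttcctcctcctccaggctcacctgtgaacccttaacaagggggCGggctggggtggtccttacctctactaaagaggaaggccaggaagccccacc
Rbbp7: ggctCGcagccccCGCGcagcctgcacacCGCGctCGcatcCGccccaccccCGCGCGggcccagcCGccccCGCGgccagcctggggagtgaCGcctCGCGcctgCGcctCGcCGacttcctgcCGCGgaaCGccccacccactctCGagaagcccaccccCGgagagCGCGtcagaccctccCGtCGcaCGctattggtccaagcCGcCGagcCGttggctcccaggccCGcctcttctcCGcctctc
Ccnb1: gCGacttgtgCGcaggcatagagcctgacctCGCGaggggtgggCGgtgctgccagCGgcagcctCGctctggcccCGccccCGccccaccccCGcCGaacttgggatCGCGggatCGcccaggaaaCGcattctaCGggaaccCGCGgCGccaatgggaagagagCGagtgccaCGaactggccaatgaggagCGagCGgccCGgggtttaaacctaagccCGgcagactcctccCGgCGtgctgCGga

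Between the epiblast groups 203 of the 252 had enough counts to test. With edgeR's quasi-likelihood test and Benjamini-Hochberg adjustment over 11565 genes at 0.05, 30 were higher in IVC than in E6.5 epiblasts and 25 lower, against 12% and 23.5% of all genes tested. Their median log2 fold change was 0.07, against -0.85 over all genes tested. Snrpd3, a core splicing protein, had 1362 and 2090 CPM in IVC, against 71.3 and 53.6 CPM in E6.5 epiblasts, a log2 fold change of 5.05 ± 0.35 (SE, n = 2 each, edgeR adjusted p = 0.0065). Scaf1, an RNA polymerase II-associated protein, had 0.0964 and 0.0976 CPM in IVC, against 107 and 117 CPM in E6.5 epiblasts, a change of -9.79 ± 0.68 (edgeR adjusted p = 0.0065), and was named for its values. Ssb was higher in IVC by 2.39 ± 0.18. Ccnb1 and Rbbp7 gave 0.16 ± 0.41 and 0.66 ± 0.29 and did not pass. The counts of calls depended on each of the 4 libraries, with 58 higher and 64 lower without IVC replicate 1, 74 and 65 without IVC replicate 2, 7 and 0 without E6.5 replicate 1, and 8 and 0 without E6.5 replicate 2, where a lone sample is taken to vary like the other group. For the counts of 0, edgeR gave 10 and 8 lower at an unadjusted p under 0.05. The labels do not say that same-group epiblasts came from separate embryos, so these p-values measure only the spread between the samples.

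Values near the thresholds lay close together. Anks4b, Banp and Pggt1b were just inside at 50.1, 50.3 and 50.9 CPM in WT oocytes 4 to 13, and Gpatch1, Stx8 and Mtfmt were just outside at 49.9, 48.8 and 48.0 CPM. Dazl, Gata3 and Tshz1 were just inside the second threshold at 24.998, 24.94 and 24.90% of the oocyte level, and Ppp2r1a, Rpa3 and Naa35 just outside at 25.04, 25.04 and 25.06%.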

How the data were processed

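The values deposited by the authors are raw counts per gene symbol with no normalization: a table of total counts for oocytes and 2-cell samples, a pair that split them into maternal and paternal counts, and a table for each epiblast group. The submitters' processing notes name STAR 2.6.0a, HTSeq 0.10.0, featureCounts 2.0.1 and the mm9 build without saying which step each served. The labels name no molecular identifiers. Of the 209 samples, 54 had RNA columns and 155 were not analysed here. The 92 ERCC spike-in rows were left out of totals. In the allele tables the 33 oocyte columns were not split, and 2046 of 244199 2-cell values above 0 exceeded the total count, none of them in the 252 transcripts.

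Counts were summed over the libraries of a group and divided by their summed totals. Ratios carry exact conditional Poisson intervals at 95% and shares Clopper-Pearson intervals. A call is 2-fold or more. For epiblasts the test was edgeR 4.0.16, quasi-likelihood with TMM factors and filterByExpr (SE taken as the fold change over the root of F), with DESeq2 1.42.0 as an alternative. Both kinds of step were tested on simulated data. Members and gene lists were chosen with earlier results of these data known, and the groups by function after the members' values were known. Named transcripts are the 10 highest in WT oocytes, the 10 highest and 5 lowest ratios at 10 CPM or more (median over libraries on the same side, a count in at least 50% of the libraries of the higher pool), up to 4 of each functional list, and the neighbours of each threshold, passing over gene models and clones (Gm, Rik, BC, AI, AU and LOC names) and names read as dates; others are said to be named for their values or belong to a group described.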

Additional observations from a re-analysis of the deposited data

Results flagged for a closer look

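In 56 sets of 4 to 10 libraries, the highest or lowest library was tested for a gap to the next one that was large beside the range of the set. The cut-off is made to give such a gap in about 1 of 20 independent sets of normally distributed values. These sets share libraries, and the genes among them were chosen by level or ratio in these data. The count found therefore cannot be set against that rate. There were 15 such gaps, of which 9 were WT 2-cell replicate 8. In that library the share of counts held by the 252 transcripts was 5.78%, H1foo had 1786 CPM, Zar1 140 CPM, Vps72 74.2 CPM, Vta1 138 CPM, Rbbp7 2248 CPM, Slbp 3666 CPM, Ccnb1 1334 CPM and Oas1d 568 CPM, each above the other 3 even-numbered WT libraries. The part of this library's spike-in share of 0.0583% in these values was not tested.

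Among KO 2-cell libraries, replicate 4 stood above the others with 12127 CPM of H1foo and 881 CPM of Zar1, replicate 9 with 502 CPM of Ssb, and replicate 3 with 210 CPM of Smc4. The share held by the 252 transcripts was 2.94% in WT 2-cell replicate 1, which was used to choose them, above the 1.86 to 2.02% of the other 3 odd-numbered libraries. It was 13.6% in KO oocyte replicate 17, below the 15.0 to 16.03% of the other KO spike-in oocytes.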

How the results depend on the processing

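The median ratio of the 252 stayed above 0 under each scaling tried, but counts moved. TMM, DESeq2 and spike-in scaling shifted every log2 ratio by 0.33, 0.26 and 0.61, so that 132, 118 and 180 of the 252 were higher in KO 2-cell samples and 1, 1 and 0 lower. The 2819 genes then had 12.8, 10.6 and 26.6% higher. With spike-in scaling the median ratio was 1.31, and 162 in KO and 239 in WT were at 25% or less of the oocyte level. The count without overlap, an alternative chosen after seeing the data, was 12, 13 and 8 higher and 0 lower under each scaling. The share of the 2819 genes without overlap was not computed there, so these counts have no background. At 3-fold 20 were higher, against 0.887% of the 2819 genes, and 0 lower, against 48 genes. Of the 70 transcripts at an eighth or less of the oocyte level, 32 were 2-fold higher and 1 lower. Among those at 100 CPM or more 1 was 2-fold lower. Leaving out single libraries gave 53 to 144 higher, 1 to 7 lower, a median of 0.58 to 1.19, 5 to 69 and 1 to 3 without overlap, 149 to 221 (WT) and 80 to 94 (KO) at 25% or less, 0.630 to 0.878% (KO) and 3.33 to 12.04% (WT) paternal over transcripts with 50 or more allele counts, and 6.99 to 8.18% (KO) and 2.14 to 4.10% (WT) of counts held. Leaving out WT replicate 8 gave the top of each ratio and WT range, except for counts held, where it gave the 2.14%. In oocytes with little rRNA it gave 0 to 4 higher and 1 to 3 lower, DESeq2 scaling 2 higher, and spike-in libraries 10 higher and 5 lower. Rbbp7 on maternal counts had -0.0475, with few assigned counts.

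In epiblasts, keeping every gene with a count gave 16 higher and 7 lower, and leaving out single libraries 7 to 74 and 0 to 65. The deviations of same-numbered epiblasts correlated at 0.00606 and no label pairs them. With the replicate number as a block 13 members were higher and 5 lower. At an unadjusted p under 0.05, DESeq2 gave 45 members higher and 38 lower, against 41 and 33 with the main edgeR test. No paired analysis was possible for oocytes and 2-cell samples because no animal is named for those libraries. Of 1288 settings for 68 single transcripts, 1220 moved the ratio by less than the spread between KO libraries and 67 moved it further. In 1, Rbbp7 on maternal counts, a log2 ratio at least 1 away from 0 changed sign. Sign changes of smaller ratios were not counted apart. With single libraries left out, Dcp1a for example ran from -0.06 to 1.37 and Ddx24 from -0.46 to 0.16. Depth limits transcripts of low level: the counting interval of Ccdc3 ran from 1.68 to 2.35 and that of Pop1 from -1.82 to -1.34.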
